A study of Mus musculus with 15 samples.

Results

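Klf2, Klf4, Klf6, Nos3, Edn1, Ece1, Ednra and Ednrb are 8 of the 44674 genes in the count table. They were taken by symbol, and each symbol matched 1 row. All 8 passed the filter on low counts. The series is bulk RNA-seq of mouse bone marrow endothelial cells (BMECs), lung endothelial cells and bone marrow mesenchymal stromal cells (MSC), with 15 libraries in 8 conditions. The EC cultures came from Tie2-CreERT2;Rosa26-tdTomato mice of 4 to 6 months given tamoxifen, in which a Tek promoter drives the inducible Cre and tdTomato marks the cells, and all animals are labelled WT. P0 Emcn+ and P0 Emcn- BMECs were sorted on day 14 of whole bone marrow culture as CD45-tdTomato+ cells with or without Emcn, the sialomucin endomucin. P1, P2, P3 and P4 are Emcn- BMECs after that many passages. Lung cells were Emcn- by the study's methods, although Emcn itself gave 32.6 and 124.6 CPM there (counts scaled to a common library total), above the P0 Emcn- libraries (12.7 and 2.52) and below the P0 Emcn+ libraries (631 and 798). MSC came from Osx-Cre;Rosa26-tdTomato mice in a medium of their own. Every condition had 2 libraries except P4, which had 1 and so has no spread.

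The KLF proteins are zinc-finger transcription factors. In vessels, laminar blood flow raises KLF2 and KLF4 through the MEK5, ERK5 and MEF2 cascade, and both factors raise Nos3, the endothelial nitric oxide synthase whose product relaxes smooth muscle, and lower Edn1. Edn1 encodes the precursor of endothelin-1, Ece1 the membrane protease that cuts it to the active peptide, and Ednra and Ednrb the ETA and ETB receptors. In vessels ETA sits mainly on smooth muscle, where it contracts, and ETB on endothelium, where it evokes nitric oxide and clears the peptide.

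On GRCm38, Klf2 (ENSMUSG00000055148) lies at chr8:72319033-72321656 on the + strand and Klf4 (ENSMUSG00000003032) at chr4:55527143-55532466 on the - strand. Klf6 (ENSMUSG00000000078), a broadly expressed early response member of the family, lies at chr13:5861482-5870394 on the + strand. Nos3 (ENSMUSG00000028978) is at chr5:24364810-24384474 on the + strand. Edn1 (ENSMUSG00000021367) is at chr13:42301476-42307990 and Ece1 (ENSMUSG00000057530) at chr4:137862237-137965229, both on the + strand. The receptors are on the - strand, Ednra (ENSMUSG00000031616) at chr8:77663031-77724464 and Ednrb (ENSMUSG00000022122) at chr14:103814625-103844402. Exons of Nos3 share 294 bases with those of Atg9b on the opposite strand. They share 1040 bases with the antisense gene Gm15587, which held at most 1 count in a library. Whether the counting used strand is not given in the sources used here. Atg9b held 455 and 175 counts in the P0 Emcn+ libraries, where Nos3 held 5714 and 3853. Exons of Ednra share 91 bases with 4933431K23Rik, which held at most 7 counts in a library.

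The 250 bases before the RefSeq transcription start (GRCm38.p6) were read for the 7 genes with an entry. They are shown for Klf2 and Klf4, paralogs that differed in pattern here, and for Edn1, Ednrb and Ednra, the ligand and receptor genes that moved together or in opposite directions. Capitals mark CACCC (the core of the box that KLF proteins bind), GGGCGG (the GC box) and the MEF2 motif, each searched on both strands. The windows are chr8:72318812-72319061 on the + strand for Klf2, of which the last 29 bases lie in an exon of the GENCODE annotation, and chr4:55532476-55532725 on the - strand for Klf4. Those of the endothelin genes are chr13:42301226-42301475 on the + strand for Edn1, chr14:103843702-103843951 on the - strand for Ednrb and chr8:77724453-77724702 on the - strand for Ednra.
Klf2: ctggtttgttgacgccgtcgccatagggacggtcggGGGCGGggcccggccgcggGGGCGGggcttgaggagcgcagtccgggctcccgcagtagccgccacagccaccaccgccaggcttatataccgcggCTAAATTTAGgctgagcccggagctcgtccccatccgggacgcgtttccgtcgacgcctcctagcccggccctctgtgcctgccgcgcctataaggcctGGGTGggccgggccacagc
Klf4: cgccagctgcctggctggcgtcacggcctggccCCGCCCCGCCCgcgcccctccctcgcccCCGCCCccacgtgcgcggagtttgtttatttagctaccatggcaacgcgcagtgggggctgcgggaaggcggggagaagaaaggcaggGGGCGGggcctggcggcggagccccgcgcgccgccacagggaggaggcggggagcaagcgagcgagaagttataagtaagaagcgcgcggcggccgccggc
Edn1: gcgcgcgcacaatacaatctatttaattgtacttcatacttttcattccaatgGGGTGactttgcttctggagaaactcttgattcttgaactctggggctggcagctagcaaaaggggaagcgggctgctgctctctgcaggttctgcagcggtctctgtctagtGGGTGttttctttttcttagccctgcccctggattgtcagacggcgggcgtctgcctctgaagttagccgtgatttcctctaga
Ednrb: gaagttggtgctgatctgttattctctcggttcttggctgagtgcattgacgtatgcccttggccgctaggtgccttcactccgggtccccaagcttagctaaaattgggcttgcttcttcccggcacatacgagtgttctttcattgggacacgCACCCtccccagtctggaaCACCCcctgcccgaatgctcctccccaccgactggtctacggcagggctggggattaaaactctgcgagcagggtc
Ednra: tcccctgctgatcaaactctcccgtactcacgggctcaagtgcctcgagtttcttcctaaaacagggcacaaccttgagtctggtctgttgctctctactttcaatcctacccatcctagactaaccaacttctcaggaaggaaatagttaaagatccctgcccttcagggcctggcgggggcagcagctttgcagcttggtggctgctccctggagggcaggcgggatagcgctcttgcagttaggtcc
The Klf2 window held 1 MEF2 match, at positions -118 to -109 from the start, a motif found in 0.509% of all 32841 RefSeq windows of this length. It overlapped no other match. Klf2 also held 1 CACCC and 2 GGGCGG, and Klf4 held 4 GGGCGG, of which 2 share 1 base, with no match to the other motifs. Edn1 and Ednrb each held 2 CACCC, and Ednra held no match. CACCC occurred in 52.0% and GGGCGG in 32.7% of all windows. The Klf windows were rich in G and C, 71.2% for Klf2 and 74.0% for Klf4, against 50.4% for Edn1, 54.8% for Ednra, 56.8% for Ednrb and a median of 52.4% over all windows. A match describes letters and is not a binding site.

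Library totals ran from 9914620 to 39718807 counts, so that 3 counts, the limit that a count of 0 allows, equal 0.0755 to 0.303 CPM. Limits of this kind cover counting error only. Summed over 10 endothelial markers, the P0 Emcn+ libraries stood at 12682 and 10626 CPM, P0 Emcn- at 274.7 and 69.9, lung at 166 and 622, MSC at 42.7 and 362, and the 7 passaged libraries at 44.8 to 70.4. The defining genes Cdh5 and Cldn5 stood at 0.0564 to 2.33 and at 0 to 0.430 CPM in the passaged libraries, whose sum came mostly from Kdr, Tek and Pecam1. These defining markers were thus at or near 0 in the passaged cells, against their label. P0 Emcn- replicate 2 was close to them, with 6.35 CPM of Cdh5, 0.202 CPM of Cldn5 and a marker sum inside the passaged range. The names BMEC and EC are used here for the P0 Emcn-, lung and passaged cells as the labels give them. Fibroblast markers summed to 216 and 286 CPM in P0 Emcn+ and to 3842 to 20045 CPM in all other libraries, lung (12293 and 13424) and P0 Emcn- (20045 and 15754) included. The labels name 4 batches. P0 and lung libraries share batches d (replicate 1) and a (replicate 2), while passaged libraries are in b (replicate 1, P4) and c (replicate 2) and both MSC libraries in c, so a difference between these blocks cannot be told apart from batch. The labels do not say that replicates were separate cultures or animals. The study's reporting summary states that bulk RNA-seq used 2 or more independent biological samples in each condition, although P4 has a single library here. The p-values measure the spread between these libraries only.

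The 8 genes varied over different ranges. Between the lowest and the highest mean of the 7 conditions with 2 libraries, Nos3 differed 1201-fold, Ednrb 321-fold, Edn1 142-fold and Ednra 29.2-fold. The single P4 library was lower still in Nos3, where it held 3 counts, in Ednrb and in Edn1. The Klf genes and Ece1 varied less, Klf2 6.41-fold, Ece1 5.46-fold, Klf6 4.04-fold and Klf4 2.32-fold. P0 Emcn+ BMECs had the highest mean of Klf2, Klf6, Nos3, Edn1, Ece1 and Ednrb and the lowest mean of Klf4 and Ednra. The panels of CPM by condition show this as a first column that stands above the rest for Nos3, Edn1, Ece1, Klf6 and Ednrb and at the bottom for Ednra.

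**Figure D1:**
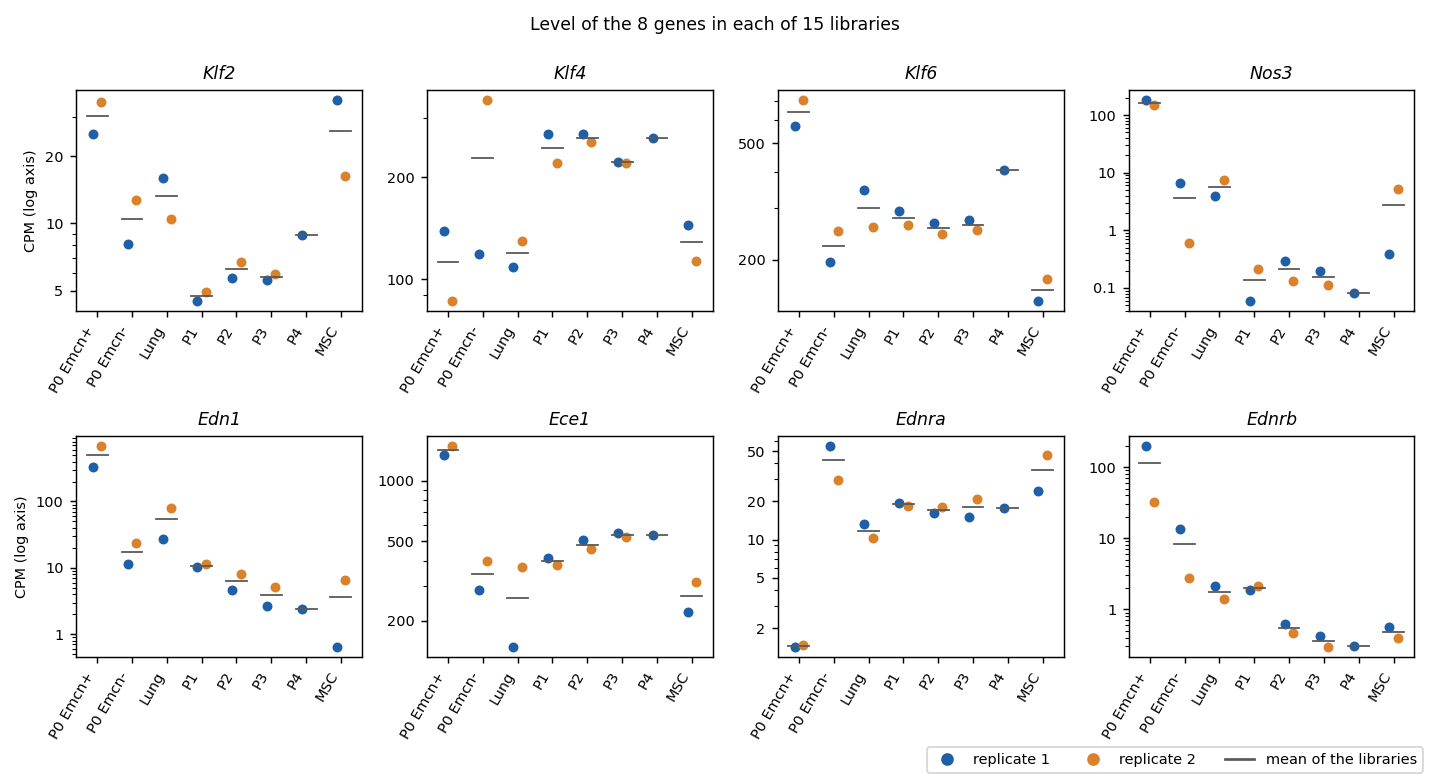
CPM of each of the 8 genes (log axis, one panel per gene) in the 15 libraries, grouped by condition. Points are libraries, blue for replicate 1 and orange for replicate 2, and grey lines are condition means. The P0 Emcn+ libraries lie at 149 and 181 CPM of Nos3 and at 1.43 and 1.47 CPM of Ednra, while no other library exceeds 7.47 CPM of Nos3 or falls below 10.2 CPM of Ednra.

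P0 Emcn+ BMECs had more of the transcripts of Nos3, of Edn1 and Ece1 and of the ETB receptor, and less of the ETA receptor. Against P0 Emcn- BMECs, 6 of the 8 genes were called higher and 1 lower by the quasi-likelihood test of edgeR (called where the adjusted p was below 0.05 and the log2 fold change beyond 1.5 either way). Of all 19401 genes tested, 7.79% were called higher and 11.4% lower. The median log2 fold change was 1.83 over the 8 genes and -0.06 over all genes. These are bulk libraries, in which fewer cells of a type and less RNA per cell cannot be told apart.

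The P0 Emcn+ libraries held 181 and 149 CPM of Nos3, the P0 Emcn- libraries 6.55 and 0.605 CPM. The groups were far apart, and the P0 Emcn- replicates differed 10.8-fold from each other. The fitted log2 fold change was 5.41 (SE 1.09, adjusted p = 0.00353). It was called throughout, but its size was uncertain, at 8.13 without P0 Emcn- replicate 1, 4.69 without replicate 2, and 27.7-fold in batch d against 246-fold in batch a. The same split was seen for Edn1, at 329.9 and 687 CPM against 11.3 and 24.0 CPM. For Edn1 the log2 fold change was 4.91 (SE 0.93, adjusted p = 0.00251), and within batches d and a it was 4.87 and 4.84. Leaving out P0 Emcn+ replicate 2 gave 4.30 and leaving out P0 Emcn- replicate 2 gave 5.53, both still called. Ece1, which processes the endothelin precursor, was abundant in both populations and higher in P0 Emcn+, at 1349 and 1491 CPM against 285 and 398 CPM. Ece1 differed by 2.09 on the log2 scale (SE 0.36, adjusted p = 0.00139).

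The receptors moved in opposite directions. Ednrb stood at 199 and 31.8 CPM in the Emcn+ cells, against 13.6 and 2.72 CPM. The fitted log2 difference was 3.80 (SE 0.85, adjusted p = 0.00601). In both populations replicate 1 was the higher library, by 6.24-fold and 4.99-fold, and within batches the log2 difference was 3.87 in d and 3.55 in a. Without P0 Emcn+ replicate 1 the log2 fold change was 1.97 and the call was lost (adjusted p = 0.0684), as in a fit of these conditions alone (adjusted p = 0.0703). With any other library left out it stayed called, at 4.59 (no P0 Emcn+ replicate 2), 5.46 (no P0 Emcn- replicate 1) and 3.12 (no P0 Emcn- replicate 2). Ednra gave 1.43 and 1.47 CPM in Emcn+ cells, from 45 and 38 counts, against 54.8 and 29.8 CPM. It differed by -4.84 on the log2 scale (SE 0.40, adjusted p = 1.45e-05) and was called under every alternative and with each library left out.

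Of the Klf genes, Klf2 and Klf6 were higher in P0 Emcn+ and Klf4 was not. Klf2 stood at 25.3 and 35.2 CPM against 8.13 and 12.8 CPM. Its log2 fold change of 1.58 (SE 0.39, adjusted p = 0.00979) lay just past the fold limit. Without P0 Emcn+ replicate 2 it was 1.34 (adjusted p = 0.0578) and without P0 Emcn- replicate 1 it was 1.29 (adjusted p = 0.0687), neither of them called, and with ashr shrinkage in DESeq2 it was 1.39, under the fold limit. Klf6 stood at 574 and 703 CPM against 197 and 251 CPM, which is 1.55 on the log2 scale (SE 0.20, adjusted p = 0.000261). It also fell under the fold limit, though not above the p limit, without either of those libraries, at 1.41 and 1.40. Klf4 gave 139 and 86.3 CPM against 119 and 338 CPM, so the groups overlapped. Its log2 fold change was -0.98 (SE 0.40, adjusted p = 0.0883), and the batches disagreed in sign, 0.22 in d and -1.97 in a. Without P0 Emcn- replicate 1 it was -1.53 and called (adjusted p = 0.00294).

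**Figure D2:**
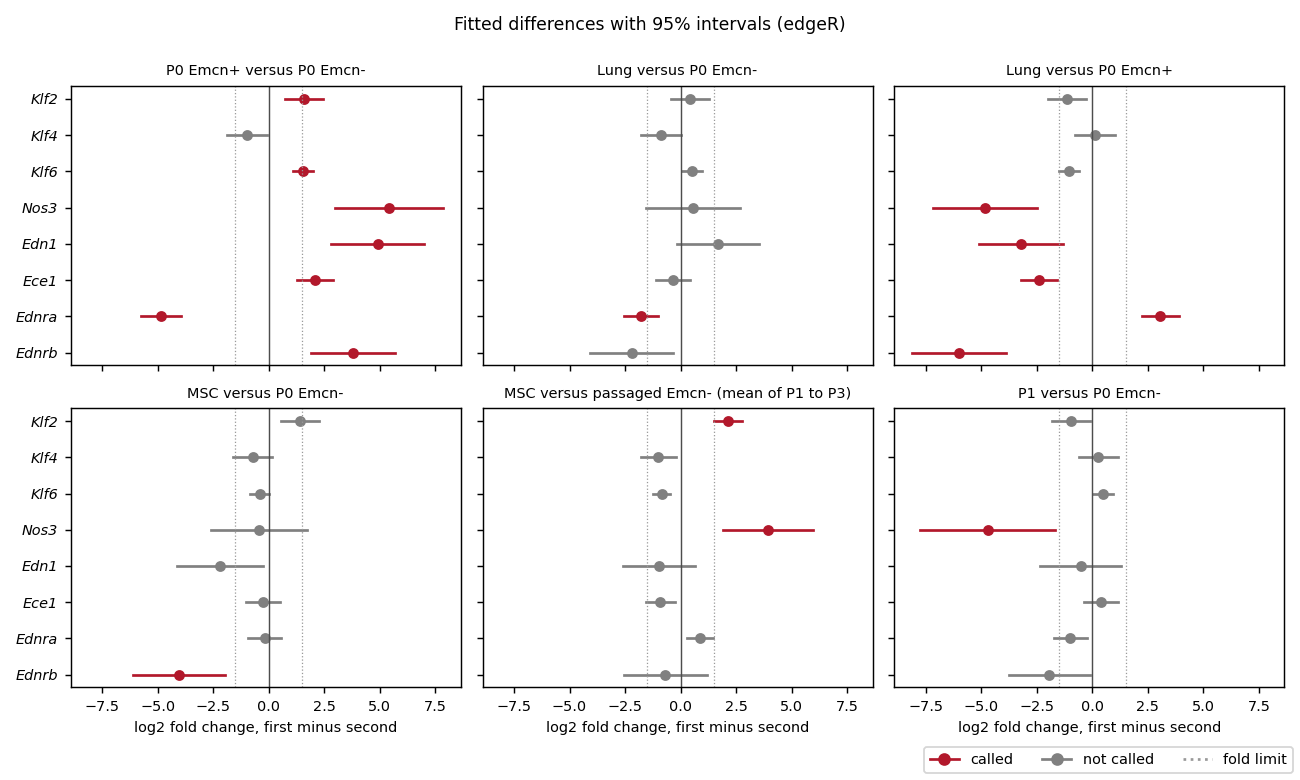
Fitted log2 fold changes (horizontal axis) of the 8 genes in 6 comparisons, points with 95% intervals, red where called and grey where not, with dotted lines at the fold limit of 1.5. In P0 Emcn+ against P0 Emcn- the intervals of Nos3 (2.98 to 7.85), Edn1 (2.83 to 6.99), Ednrb (1.92 to 5.69) and Ednra (-5.73 to -3.95) lie wholly beyond the limit. Those of Ece1 (1.29 to 2.89), Klf2 (0.72 to 2.43), Klf6 (1.09 to 2.00) and Klf4 (-1.88 to -0.08, not called) cross it.

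The genes around these 8 moved in both directions between the marrow populations. Over all genes 7.79% were called higher and 11.4% lower, with a median log2 fold change of -0.06. Of the 13 genes upstream of KLF2 and KLF4 (flow sensors, the CCM complex, the MEK5 cascade and MEF2 factors) 3 were higher and none lower, with a median log2 fold change of 0.70. They were Plxnd1, a flow-sensing semaphorin receptor (3.01), and the transcription factors Mef2c (1.56) and Mef2a (1.54). Mef2a stood at 273 and 176 CPM in P0 Emcn+ against 74.6 and 83.9 CPM in P0 Emcn-. Of 15 tested Klf family genes 2 were higher, Klf2 and Klf6 themselves, and 3 were lower, Klf15 (-4.30), Klf9 (-2.30) and Klf12 (-2.13), with a median of 0.40. Klf9, a target of glucocorticoid hormones, gave 47.9 and 49.5 CPM in the Emcn+ libraries, far below 247 and 244 CPM in the Emcn- libraries. Calls in the family thus went both ways.

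Of 12 flow-induced endothelial genes 4 were called higher and 4 lower, where 7.79% of all genes were higher and 11.4% lower. Their median was 0.34, against -0.06 over all genes. Among the 4 higher were the members Nos3 and Klf2, and the member Klf4 was in the list but not called. The list genes with the largest changes were Cyp1b1 (-5.76), Nos3 and S1pr1, the receptor for sphingosine-1-phosphate (4.95). S1pr1 stood at 755 and 787 CPM in the Emcn+ libraries and at 30.1 and 20.5 CPM in the others, with no overlap.

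In the nitric oxide pathway 5 of 18 tested genes were higher and 7 lower, where 7.79% of all genes were higher and 11.4% lower. The pathway median was 0.15. The 5 higher were Nos3, Nos2, the inducible synthase (log2 fold change 5.19), Gch1, which makes the cofactor tetrahydrobiopterin (2.83), Cav1, which binds the synthase in caveolae (2.57), and the arginine transporter Slc7a1 (1.64). The 7 lower were the subunits of the nitric oxide receptor guanylyl cyclase Gucy1a2 (-5.91), Gucy1a1 (-4.09) and Gucy1b1 (-3.32), the cGMP phosphodiesterase Pde5a (-2.88), the cGMP-dependent kinase Prkg1 (-1.68), Ass1 of arginine synthesis (-2.72) and the neuronal synthase Nos1 (-2.51). The other 6 were not called. Gucy1a2 had 0.127 and 0.0386 CPM in Emcn+ cells, against 7.25 and 3.63 CPM. In the endothelin axis 3 of 6 tested genes were higher and 2 lower, with a median of 0.39. The 3 higher were the members Edn1, Ece1 and Ednrb themselves. Beside Ednra the lower one was Mme, neprilysin, a protease that degrades endothelin-1, at 7.57 and 8.23 CPM against 72.1 and 85.9 CPM (-3.29). The other ligand genes had at most 1 count in a library, Edn2 in 2 libraries, and Edn3 none.

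Immediate early genes and cell markers were read beside these results, where 7.79% of all genes were higher and 11.4% lower. Of 15 immediate early genes, which answer handling and growth signals within minutes, 1 was higher and 3 lower, with a median of -0.92. The largest changes were those of Egr2 (-5.81), Zfp36 (-2.39) and Atf3 (2.35). All 10 endothelial markers were called higher in P0 Emcn+, among them Emcn, which defined the sort, with a median of 6.16, and all 6 fibroblast markers lower, with a median of -6.10. Of 10 mural markers 1 was higher and 5 lower (median -2.74), of 4 lymphatic endothelial markers 3 were higher and 1 lower (4.51), and of 5 osteolineage markers 3 were lower (-4.22). Macrophage markers, of which 2 of 7 were higher (1.14), summed to 542 and 548 CPM in Emcn+ cells, above 189 and 228 CPM in Emcn- cells. Of 4 lung epithelial markers 1 could be tested and was not called. The part of these markers in the differences of the 8 genes was not tested.

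The balance of the endothelin receptor transcripts could be compared on one scale, CPM per kilobase of exon. Receptor protein was not measured. Ednrb made up 99.4% and 96.5% of the summed Ednrb and Ednra level in the P0 Emcn+ libraries. In P0 Emcn- it made up 24.1% and 10.5%, in lung 16.9% and 14.8% and in P1 10.9% and 12.8%. The share was lower again in P2, at 4.65% and 3.19%, in P3, at 3.46% and 1.78%, in the P4 library, at 2.14%, and in MSC, at 2.91% and 1.07%. The P0 Emcn+ libraries were thus the only ones of the 15 in which Ednrb exceeded Ednra per kilobase. Ednra itself was highest in P0 Emcn- (7.72 ± 3.24 CPM per kilobase, SD, n = 2) and in MSC (6.47 ± 2.94), whose libraries overlapped. It then lay between 2.77 and 3.83 in the 7 passaged libraries and below them in lung (2.14 ± 0.38).

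**Figure D3:**
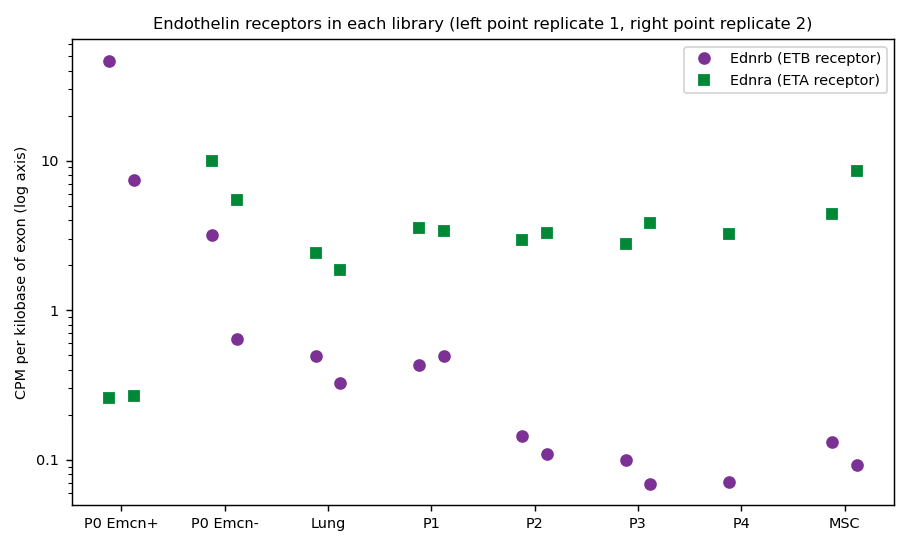
CPM per kilobase of exon (log axis) of Ednrb (purple circles) and Ednra (green squares) in each library by condition, the left point of a pair being replicate 1. Ednrb lies above Ednra in both P0 Emcn+ libraries (46.6 and 7.46 against 0.260 and 0.268) and below it in the other 13.

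Between lung ECs and P0 Emcn- BMECs 1 of these genes was called. With 2 libraries in each condition, a gene that was not called is not shown to be alike in them. In lung against P0 Emcn-, where 2.13% of all genes were called higher and 1.7% lower, no member was higher and 1 was lower. Ednra stood at 13.2 and 10.2 CPM in lung against 54.8 and 29.8 CPM, a log2 fold change of -1.79 (SE 0.34, adjusted p = 0.0153). The direction held in both batches (-2.05 in d and -1.54 in a). This call did not survive leaving out P0 Emcn- replicate 1 (-1.26, adjusted p = 0.0795), lung replicate 1 (adjusted p = 0.0564) or 2 (adjusted p = 0.0910), or a fit of these conditions alone (adjusted p = 0.117). Edn1 stood at 27.3 and 80.6 CPM in lung, above both P0 Emcn- libraries, yet its log2 fold change of 1.69 (SE 0.83) missed the limit (adjusted p = 0.322, interval -0.14 to 3.53). Ednrb, at 2.10 and 1.38 CPM in lung, was below both P0 Emcn- libraries with a log2 fold change of -2.20 (SE 0.84, adjusted p = 0.192). The macrophage markers, of which 6 of 7 were lower in lung, summed there to 22.4 and 20.7 CPM, and their part in the Ednrb difference was not tested.

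The Klf genes and Nos3 gave no call between lung and P0 Emcn-. Klf6 stood at 345 and 258 CPM in lung, a log2 fold change of 0.50 (SE 0.20, adjusted p = 0.213). Klf2, at 16.0 and 10.5 CPM, overlapped P0 Emcn- (0.43, interval -0.42 to 1.27), as did Klf4, at 108 and 130.2 CPM (-0.87, interval -1.77 to 0.03). Nos3, at 3.92 and 7.47 CPM, was lower than P0 Emcn- in batch d and higher in batch a (log2 differences -0.74 and 3.63). Of the Klf family only Klf5, a factor of epithelia, was called, higher in lung (2.58), and the 13 upstream genes had no call (median 0.17). Over all genes 2.13% were called higher and 1.7% lower.

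Against P0 Emcn+ BMECs, where 12.6% of all genes were called higher in lung and 8.48% lower, lung ECs were lower in 4 of the 8 genes and higher in 1. This comparison shares its lung libraries with the one before. The log2 fold change was -6.00 for Ednrb (SE 0.95, adjusted p = 0.000786), -4.84 for Nos3 (SE 1.06, adjusted p = 0.00512), -3.21 for Edn1 (SE 0.86, adjusted p = 0.0140), -2.42 for Ece1 (SE 0.36, adjusted p = 0.000566) and 3.05 for Ednra (SE 0.38, adjusted p = 0.000172). The Edn1 call was lost without lung replicate 1 (adjusted p = 0.0966) and also, at an adjusted p = 0.0692, without the second P0 Emcn+ library. Still called, but changed in size, were Ednrb without P0 Emcn+ replicate 1 (-4.16) or 2 (-6.79), and Edn1 (-4.18) and Ece1 (-3.22) without lung replicate 2. Klf6 (-1.04, adjusted p = 0.00244) and Klf2 (-1.15, adjusted p = 0.0356) passed the p limit but not the fold limit, and Klf2 was called without lung replicate 1 (-1.52). Klf4 differed by 0.11 (SE 0.40, interval -0.78 to 1.00).

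After the passage to P1 7 of the 8 genes were not called and the nitric oxide synthase transcript was lower. P1 against P0 Emcn- gave no call higher and 1 lower, where 5.77% of all genes were called higher and 3.07% lower. These conditions share no batch. Nos3 had 2 and 6 counts in P1, 0.0595 and 0.215 CPM, against 260 and 6 counts in P0 Emcn-, where the libraries were of different depth. Its log2 fold change was -4.72 (SE 1.37, adjusted p = 0.0410). The call rested on P0 Emcn- replicate 1, without which it was -2.02 (adjusted p = 0.596), and it was -5.47 without replicate 2. It was also lost with the batch terms of the replicate block (-4.61, adjusted p = 0.0660), in a fit of these conditions alone (adjusted p = 0.104) and without P1 replicate 1 (adjusted p = 0.219) or replicate 2 (adjusted p = 0.128). In P2, P3 and P4 Nos3 stayed between 3 and 10 counts a library.

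The endothelin receptors were both lower at P1 without passing the limits. Ednra stood at 19.4 and 18.5 CPM, below both P0 Emcn- libraries, with a log2 fold change of -1.01 (SE 0.33, adjusted p = 0.0624). Ednrb stood at 1.84 and 2.12 CPM, a log2 fold change of -1.95 (SE 0.82, adjusted p = 0.125). It was called with the replicate block (-1.51, adjusted p = 0.0403) and without P0 Emcn- replicate 2 (-2.65, adjusted p = 0.0423). Edn1, at 10.2 and 11.3 CPM (-0.53, interval -2.35 to 1.30), and Ece1, at 414 and 378 CPM (0.37, interval -0.40 to 1.15), were not called. Of the endothelin axis Mme was the gene called, higher at P1 (203 and 268 CPM, log2 fold change 1.73, adjusted p = 0.00694).

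No Klf member was called at P1, and 13 immediate early genes fell. Klf2 stood at 4.49 and 4.95 CPM (log2 fold change -0.98, SE 0.39, adjusted p = 0.105), Klf4 at 269 and 221 CPM (0.26, SE 0.40) and Klf6 at 293 and 264 CPM (0.47, SE 0.20, adjusted p = 0.123). None of the 15 tested Klf family genes was called in either direction (median 0.25). By contrast 13 of the 15 immediate early genes were lower and none higher, with a median of -3.18 against 0.02 over all genes. Over all genes 3.07% were called lower and 5.77% higher. Fos fell from 239 and 278 CPM to 2.23 and 3.66 CPM (-6.31, adjusted p = 8.61e-05), and Fosb (-4.76) and Nr4a1 (-3.91) followed. Klf4 and Klf6 are often counted with these genes because serum induces them, and their intervals here were -0.63 to 1.15 and 0.03 to 0.92. Batch and passage cannot be told apart at this step.

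**Figure D4:**
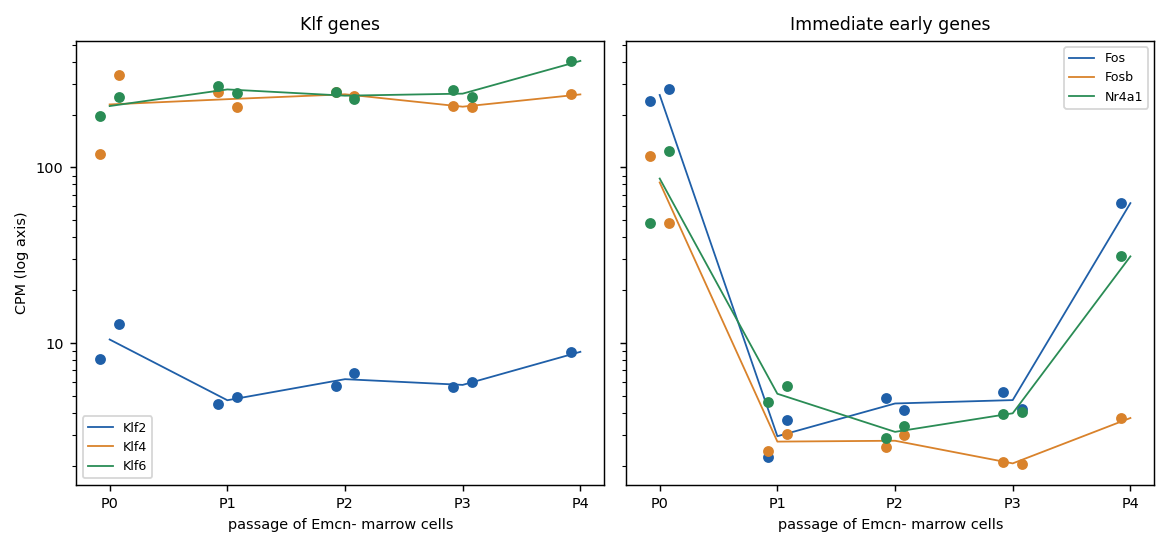
CPM (log axis) of Klf2, Klf4 and Klf6 (left) and of the immediate early genes Fos, Fosb and Nr4a1 (right) in Emcn- marrow cells from P0 to P4. Points are libraries and lines join condition means. Fos lies at 239 and 278 CPM at P0, at 2.23 to 5.28 CPM in P1 to P3 and at 62.6 CPM in the P4 library, while Klf4 stays between 119 and 338 CPM.

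Over P1 to P4 none of the 8 genes showed a trend per passage at an adjusted p under 0.05, where 0.18% of all genes were called higher and 0.16% lower. By the unadjusted p of edgeR 1 gene passed 0.05, Klf6, and DESeq2 called 0 after adjustment. The study passaged its cells serially, and both fits took the libraries of successive passages as independent. Ednrb had a slope of -0.84 on the log2 scale (SE 0.40, adjusted p = 0.402), with libraries of 1.84 and 2.12 CPM in P1, of 0.613 and 0.464 CPM in P2, of 0.423 and 0.296 CPM in P3 and of 0.302 CPM in P4. Those are 62 and 59 counts at P1 and 11 counts at P4. P1 and P2 libraries did not overlap, and from P1 to P3 the log2 difference was -2.12 in batch b and -2.84 in batch c. In a fit of the passaged libraries alone the Ednrb slope was called (-0.85, adjusted p = 0.0496). Edn1 went from 10.2 and 11.3 CPM at P1 to 2.39 CPM at P4, a slope of -0.71 (SE 0.35, adjusted p = 0.424), and its P1 to P3 difference was -1.96 in batch b and -1.15 in batch c. Over the same passages the macrophage marker sum went from 69.6 and 223 CPM at P1 to 35.8 and 39.3 CPM at P2 and 11.6 CPM at P4, and the part of this in the Ednrb values was not tested.

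The Klf genes were steady over the passages apart from the P4 library. Klf2 lay between 4.49 and 6.73 CPM in P1 to P3 and at 8.91 CPM in P4. Klf6 lay between 245 and 293 CPM in P1 to P3 and at 405 CPM in P4, and its slope of 0.18 (SE 0.07, adjusted p = 0.324) was -0.0193 without P4. The immediate early genes summed to 279.5 to 349 CPM in P1 to P3 and to 1407 CPM in P4. Klf4 stayed at 221 to 269 CPM in all 7 libraries, Ednra at 15.2 to 20.9 CPM and Ece1 at 378 to 549.5 CPM, with slopes of 0.02, -0.0021 and 0.16.

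MSC were higher than the passaged cells in Klf2 and Nos3. They were compared with the mean of P1 to P3, whose replicate 1 libraries are in a batch that holds no MSC. Of the 8 genes 2 were higher and none lower, where 8.42% of all genes were called higher and 5.81% lower. The study passaged its cells serially. Whether same-numbered P1 to P3 libraries came from the same culture is not given in the sources used here, and the fit took them as independent. Klf2 stood at 35.7 and 16.3 CPM in MSC, which overlapped P0 Emcn+, a log2 fold change of 2.15 (SE 0.28, adjusted p = 0.000424). Both MSC libraries lay above all passaged ones, and against the batch c libraries the log2 differences were 2.60 and 1.47. Without MSC replicate 1 it was 1.43 and fell under the fold limit. Nos3 stood at 0.393 and 5.21 CPM, a log2 fold change of 3.93 (SE 0.91, adjusted p = 0.00869). It rested on MSC replicate 2, without which it was 1.16 (adjusted p = 0.537), and was 4.82 without replicate 1. That library also held 362 CPM of endothelial markers, against 42.7 CPM in replicate 1, and the part of this in the Nos3 value was not tested.

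The other 6 genes were not called between MSC and passaged cells. Klf6 stood at 145 and 172 CPM (-0.85, SE 0.17, adjusted p = 0.00432) and Ece1 at 221 and 312 CPM (-0.91, SE 0.30, adjusted p = 0.0416), both under the fold limit. Klf4 stood at 145 and 113 CPM (-0.999, SE 0.35, adjusted p = 0.0507). Ednra, at 24.1 and 46.8 CPM, passed the p limit only (0.87, SE 0.26, adjusted p = 0.0263). Edn1 gave 0.646 and 6.51 CPM, overlapped the passaged libraries (-0.96, interval -2.58 to 0.66), and was called without MSC replicate 2 (-3.37, adjusted p = 0.0294). Ednrb, at 0.561 and 0.396 CPM, overlapped them too (-0.69, interval -2.57 to 1.18). Of the Klf family Klf15 (-2.58) and Klf9 (-2.43) were lower and Klf5 (2.29) and Klf2 higher, and 7 of 15 immediate early genes were higher with none lower (median 1.44). Over all genes 8.42% were called higher and 5.81% lower.

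Against P0 Emcn- BMECs, with which MSC share no batch, 1 of the 8 genes was called in MSC, and it was lower, where 11.3% of all genes were called higher and 7.45% lower. Ednrb had a log2 fold change of -4.04 (SE 0.94, adjusted p = 0.00864). The call was lost without P0 Emcn- replicate 1 (-2.40, adjusted p = 0.115) or MSC replicate 2 (-3.80, adjusted p = 0.0575). The value was -4.74 when P0 Emcn- replicate 2 was left out. Macrophage markers, of which 6 of 7 were lower, summed to 24.0 and 34.7 CPM in MSC. Klf2 passed the p limit only (1.43, SE 0.38, adjusted p = 0.0165), though it was called without P0 Emcn- replicate 2 (1.75) or MSC replicate 2 (1.90). Edn1 had a log2 fold change of -2.21 (SE 0.87, adjusted p = 0.0720) and was called with the replicate block (-2.42, adjusted p = 0.0408), without the filter (-2.23, adjusted p = 0.0332) and without MSC replicate 2 (-4.62). Mme was higher in MSC, at 845 and 459 CPM (3.15, adjusted p = 0.000154).

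The proportions among the Klf genes shifted between conditions. Per kilobase, Klf4 exceeded Klf2 by 1.49 to 3.33 times in the P0 Emcn+ libraries, by 2.46 to 4.22 times in MSC, by 4.12 to 7.50 times in lung and by 8.87 to 16.0 times in P0 Emcn-. In P1 it exceeded Klf2 by 27.0 to 36.3 times and in P4 by 17.7 times. Klf6 exceeded Klf4 by 2.87 to 5.66 times in P0 Emcn+ and by 1.38 to 2.21 times in lung, and the ratio of Klf6 to Klf4 was 0.515 to 1.15 in P0 Emcn- and 0.668 to 1.08 in the passaged and MSC libraries. Klf6 was the most abundant of the Klf members in P0 Emcn+ (145 ± 20.8 CPM per kilobase, SD, n = 2), where Klf4 gave 36.9 ± 12.2 and Klf2 16.4 ± 3.80.

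The conditions were ordered by their means, and neighbours in that order were compared by whether their libraries overlapped. For Klf2 the means ran P0 Emcn+, MSC, lung, P0 Emcn-, P4, P2, P3 and P1, and the first pair overlapped, as did lung with P0 Emcn-, P0 Emcn- with P4 and P2 with P3. For Klf4 the order was P2, P4, P1, P0 Emcn-, P3, MSC, lung and P0 Emcn+, with a gap only between P3 and MSC. For Klf6 P0 Emcn+ and P4 led, lung to P0 Emcn- overlapped in a chain through P1, P3 and P2, and MSC came last and apart. For Nos3 P0 Emcn+ stood apart, lung, P0 Emcn- and MSC overlapped, and the passaged conditions followed below them. For Edn1 P0 Emcn+ and then lung stood apart, P0 Emcn- overlapped P1, and P2, P3, MSC and P4 overlapped in turn. For Ece1 P0 Emcn+ stood apart, P3 overlapped P4, and P1, P0 Emcn-, MSC and lung overlapped in turn at the low end. For Ednra P0 Emcn- overlapped MSC, P1, P3, P4 and P2 overlapped each with the next, and lung and then P0 Emcn+ were lower. For Ednrb P0 Emcn+ and P0 Emcn- stood apart, P1 overlapped lung, and P2, MSC, P3 and P4 formed a chain of overlaps.

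Nos3, Edn1, Ednrb and Klf2 were also set against the endothelial markers. As a percentage of the summed endothelial markers, Nos3 came to 1.43 and 1.40 in P0 Emcn+, to 2.38 and 0.866 in P0 Emcn-, to 2.37 and 1.20 in lung and to 0.920 and 1.44 in MSC. In the passaged libraries it came to 0.0845 to 0.437. Edn1 came to 2.60 and 6.46 in P0 Emcn+, 4.10 and 34.3 in P0 Emcn-, 16.5 and 13.0 in lung, 1.51 and 1.80 in MSC and 4.03 to 18.7 in the passaged libraries. Of the summed macrophage markers, Ednrb came to 36.7% and 5.82% in P0 Emcn+, where these sums were 542 and 548 CPM. It came to 7.19% and 1.19% in P0 Emcn-, 9.35% and 6.68% in lung and 2.34% and 1.14% in MSC. In the passaged libraries it came to 0.948% to 2.65%. The part of macrophage transcripts in the Ednrb values was not tested. The markers and the genes come from the same libraries, and these percentages are a description.

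**Figure D5:**
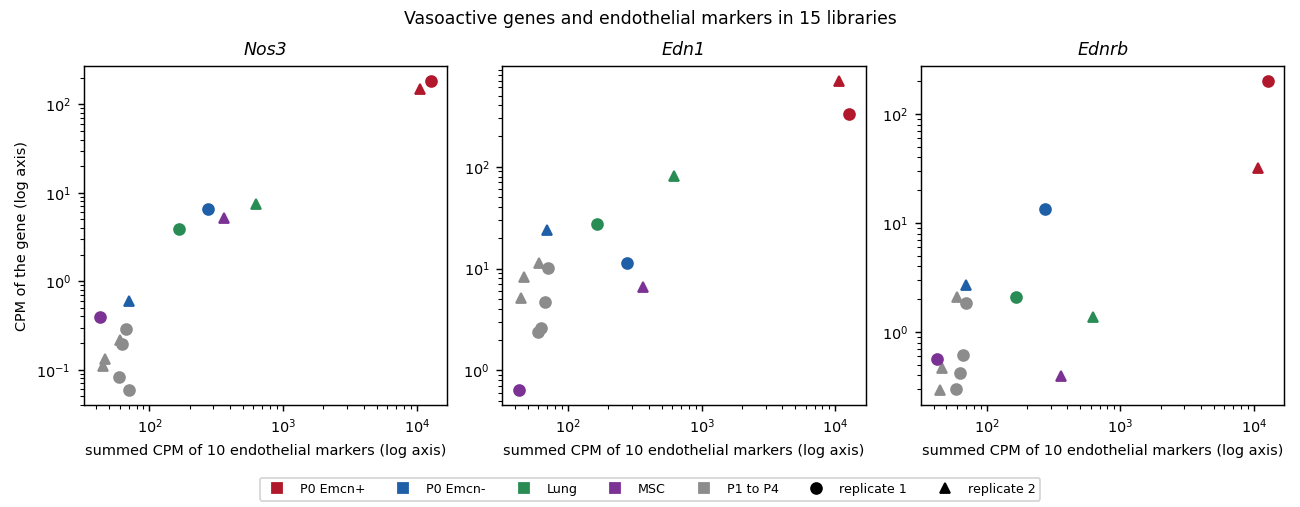
CPM of Nos3, Edn1 and Ednrb (vertical log axes) against the summed CPM of 10 endothelial markers (horizontal log axes) in 15 libraries, coloured by condition, circles for replicate 1 and triangles for replicate 2. P0 Emcn+ lies apart at the upper right, at 10626 and 12682 CPM of markers, and MSC replicate 2 and lung replicate 2, at 362 and 622 CPM, lie with P0 Emcn- replicate 1 for Nos3 but far below it for Ednrb.

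The genes whose pattern over the 15 libraries was most like that of a member were found by the root-mean-square difference of mean-centred log2(CPM + 1). For Nos3 they were Sox18 (0.20), Icam2 (0.26) and Sox17 (0.26), where Nos3 itself varied with an SD of 2.40. For Edn1 they were Klhl6 (0.80), Adcy4 (0.83) and Lyve1 (0.87), and for Ednrb Ms4a6d (0.62), Cd33 (0.64) and Irf8 (0.67), all known from myeloid cells. Edn1 and Ednrb, which varied with SDs of 2.34 and 2.01, had looser neighbours than Nos3. For Ednra they were Mgat3 (0.35), Pxylp1 (0.36) and Pth1r (0.39), for Ece1 Ipmk (0.28), 6430548M08Rik (0.28) and Nol4l (0.29), and for Klf2 Actg1 (0.35), Sgk3 (0.36) and Cep41 (0.38). For Klf4 they were Akap7 (0.22), Igdcc3 (0.25) and Lrrcc1 (0.27), and for Klf6 Plekho2 (0.24), Smpd5 (0.26) and Fam171a1 (0.26). The SDs were smaller for Ednra (1.23), Klf2 (0.89), Ece1 (0.82), Klf4 (0.59) and Klf6 (0.57). A small difference for these genes is thus not as tight a match as it is for Nos3.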

How the data were processed

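The authors trimmed the reads, aligned them with STAR to GRCm38 in the nf-core RNASeq pipeline and quantified Ensembl genes with Salmon. The deposited values are counts, whole and without normalization, of 15 libraries, and how the estimates were rounded is not given in the sources used here. Conditions, replicates and batches came from the sample labels. CPM was computed on the library totals, and CPM per kilobase on the exon length of GENCODE M21.

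Counts were tested in R 4.3.3 with edgeR 4.0.16 (TMM, filterByExpr with a minimum count of 10 and total of 15, quasi-likelihood test, 1 coefficient per condition), which left 19401 genes, 7 residual and 3.07 prior degrees of freedom. Benjamini-Hochberg adjustment ran over all genes tested. Calls needed an adjusted p under 0.05 and, except for the trend, an absolute log2 fold change above 1.5. Intervals are 95% intervals of the fit. The procedure was checked on simulated counts with changes planted in well-counted genes, and not all of these changes were recovered. Genes with low counts were not covered by this check. Chi-square divided by its degrees of freedom was 42.5 to 141 between replicates, far from the 1 of pure counting error, and none were merged.

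Labelled batches pair same-numbered libraries among P0 and lung libraries and among P1 to P3, and deviations from the condition means correlated by 0.138 to 0.207 and by 0.355 to 0.456. Alternatives were DESeq2 1.42.0 (Wald test, and shrinkage with ashr 2.2.63), RLE factors, no filter, at least 50 counts in 2 libraries, batch terms as a replicate block, the compared conditions alone, no fold limit, and each library left out. Without 1 library the lone library of its condition is assumed to vary like the others.

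The members and the 7 context and 7 marker lists were chosen with earlier results of these data known. Named are the 8 members, at most the 3 list genes with the largest called change in a comparison, list genes tied biochemically to a member, markers that move with a result, and the 3 genes nearest to each member in pattern. Promoter windows came from RefSeq.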

Additional observations from a re-analysis of the deposited data

How the results depend on the processing

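In P0 Emcn+ against P0 Emcn- BMECs 5 to 7 of the 8 genes were called over the alternatives tried. With ashr shrinkage in DESeq2 the Nos3 value, still called, was -4.16 in lung against P0 Emcn+, 3.18 in MSC against passaged cells and -3.17 at P1. With the compared conditions alone, the count called was 0 for lung against P0 Emcn- and for P1 against P0 Emcn-, and 1 for the trend. MSC against P0 Emcn- gave 2 without the filter, without the fold limit and with the replicate block, and MSC against passaged cells gave 5 without the fold limit. The replicate block changed 3 calls in all, those of Edn1 in MSC and of Nos3 and Ednrb at P1. With each library left out, the count ran from 0 to 1 for lung against P0 Emcn-, from 0 to 2 for MSC against P0 Emcn-, from 1 to 2 for MSC against passaged cells and from 0 to 2 for P1 against P0 Emcn-.

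Directions turned 24 times among 711 gene values, none of a called gene. The Ednra trend turned to 0.0016 with DESeq2 and with RLE factors and to 0.0164 with the replicate block, where the Klf4 trend turned to -0.0015. With a library left out, the ranges that crossed 0 were as follows. The trend ran from -0.0232 to 0.0169 for Ednra, from -0.0516 to 0.0746 for Klf4, from -0.0193 to 0.21 for Klf6 and from -0.42 to 0.16 for Nos3. Klf4 ran from -0.20 to 0.48 in lung against P0 Emcn+, from -1.43 to 0.0539 in lung and from -1.30 to 0.19 in MSC against P0 Emcn-, and from -0.31 to 1.18 at P1. Nos3 ran from -0.17 to 3.28 in lung and from -3.21 to 2.26 in MSC against P0 Emcn-, Ednra from -0.71 to 0.33 in MSC, Ece1 from -1.11 to 0.17 in lung and Edn1 from -1.005 to 0.0663 at P1. Depth limits Nos3 and Ednrb in passaged cells, with 2 to 10 and 8 to 62 counts a library.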

Other observations

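Vasoactive genes outside the nitric oxide and endothelin paths also differed between the cultures. In P0 Emcn+ against P0 Emcn- BMECs 3 of 14 tested genes were called higher and 6 lower, with a median log2 fold change of 0.08, where 7.79% of all genes were higher and 11.4% lower. The largest changes were those of Apln, the ligand of the apelin receptor (5.28, at 2046 and 1535 CPM against 83.5 and 9.78 CPM), Ptgis, the prostacyclin synthase (-4.91), and Npr3, the natriuretic peptide clearance receptor (-4.30). In MSC against passaged cells 3 were higher and 3 lower, with a median of -0.02, where 8.42% of all genes were higher and 5.81% lower, led by Ace, the angiotensin-converting enzyme (-8.88), Npr1 (-5.56) and Ptgs2 (5.19). Ace stood at 2.02 and 10.4 CPM in MSC and at 2281 to 3289 CPM in the 7 passaged libraries. In lung against P0 Emcn- 2 were higher, Ptgs1 (3.35) and Ptgis (3.10), and none lower, where 2.13% of all genes were higher and 1.7% lower.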
